A study of Mus musculus with 2 samples.

Results

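The genes described here encode the proteins of the cytosolic ribosome, the particle that translates messenger RNA. They are the 84 genes whose symbols begin with Rpl or Rps and a number, or with Rplp, among 15169 genes listed in both of 2 single-cell libraries. The name pattern matched 97 symbols, of which 4 pseudogene symbols ending in -ps and a number and 9 Rps6k kinase genes were left out, and 0 were listed in 1 library only. The large subunit accounts for 51 members and the small subunit for 33. Among these, 8 are paralogues or are not ribosomal proteins (Rpl22l1, Rps27l, Rps27rt, Rpl36al, Rpl39l, Rpl3l, Rpl7l1 and Rps19bp1, a protein that binds Rps19), which leaves 76. Every member is annotated in GENCODE M21 on the mm10 build, on 19 chromosomes, with 4 members on the X chromosome.

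The cells came from retinas of B6 mice in which microbeads were used to induce glaucoma, and were sorted by flow cytometry for CD45, the surface protein of blood-derived cells and microglia. In the PBS group the glaucomatous mice received PBS, and in the Igfbpl1 group they received Igfbpl1, a protein named for its likeness to the binding proteins of insulin-like growth factors. Retinas of 10 mice aged 8 to 10 months were pooled per group, after perfusion with saline and 1 hour of enzymatic dissociation, and each pool gave 1 library of a 10x 3' kit. Induced glaucoma is common to both groups, and retinas without it were not analysed here. With 1 library per group no difference was tested. Intervals below are exact at the 95% level (by Clopper-Pearson for a share, Poisson for a level and the conditional binomial for a ratio). They hold counting error alone, so what is compared is 2 libraries and not 2 treatments.

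A ribosome joins a small subunit, which holds the messenger RNA and reads its codons, to a large subunit, which forms the peptide bonds. Most ribosomal proteins are present once per ribosome, and their messenger RNAs are known to start with a C followed by a run of C and T (the 5' terminal oligopyrimidine, or TOP, tract), through which the kinase mTORC1 controls their translation together. Their transcripts are among the most abundant of resting lymphocytes, and their share of a cell's messenger RNA differs widely between cell types.

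Counted by UMIs (unique molecular identifiers, 1 per captured transcript), the PBS library had 3795008 in 1055 cells, with a median of 3433 UMIs per cell, and the Igfbpl1 library 9463631 in 3330 cells, with a median of 2355.5. Cell types were set by the UMIs of markers for 12 classes, and a class is called by its name and "-like". A cell joined the class with the most marker UMIs if these were at least 3 UMIs from 2 markers and 3 times those of the next class, which left 62 PBS cells (5.88%) and 928 Igfbpl1 cells (27.9%) unassigned. Of the unassigned cells, 18 and 384 had too few marker UMIs and 38 and 396 had markers of several classes. Of the 1539 microglia-like Igfbpl1 cells, 53 lay at the limit of 3 marker UMIs, against 5 of 760 PBS cells. CD45 marks no neurons, so the neuron-like and rod-like cells came through the sort. Amacrine-like cells had 6 of 6 markers detected but none among their 10 leading genes. No cell barcode was shared between the libraries.

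Ribosomal protein genes took very different shares of the transcripts of different cell types. The share is the summed UMIs of the 84 members over all UMIs of a class, given where a library held at least 20 cells. In the Igfbpl1 library it was largest in lymphocytes, at 30.2% in T cell-like cells (201 cells), 29.7% in natural killer (NK) cell-like cells (168 cells) and 28.8% in B cell-like cells (64 cells). Monocyte-like cells (84 cells) followed at 25.8%, dendritic cell-like cells (149 cells) at 25.5% and plasmacytoid dendritic cell-like cells (23 cells) at 22.7%. Microglia-like cells (microglia are the retina's own macrophages) stood at 12.8%, below every other immune class of that library. Retinal cells held the smallest shares, with 7.36% in bipolar neuron-like cells (104 cells), 6.15% in amacrine neuron-like cells (21 cells) and 4.96% in Muller glia or astrocyte-like cells (26 cells). The counting intervals of monocyte-like cells (25.7 to 26.0%) and dendritic cell-like cells (25.3 to 25.6%) did not overlap, but the spread over cells within a class was far wider than such gaps, with quartiles of 22.2 and 29.5% in monocyte-like cells and of 16.8 and 29.6% in dendritic cell-like cells.

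In the PBS library the order was similar at its ends. T cell-like cells (29 cells) stood at 40.8%, B cell-like cells (79 cells) at 30.1%, macrophage-like cells (31 cells) at 13.3% and microglia-like cells at 10.7%. Rod photoreceptor-like cells (38 cells) stood at 7.24% and bipolar neuron-like cells (23 cells) at 5.50%. A share is relative, so more ribosomal protein transcripts and fewer other transcripts per cell cannot be told apart.

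**Figure D1:**
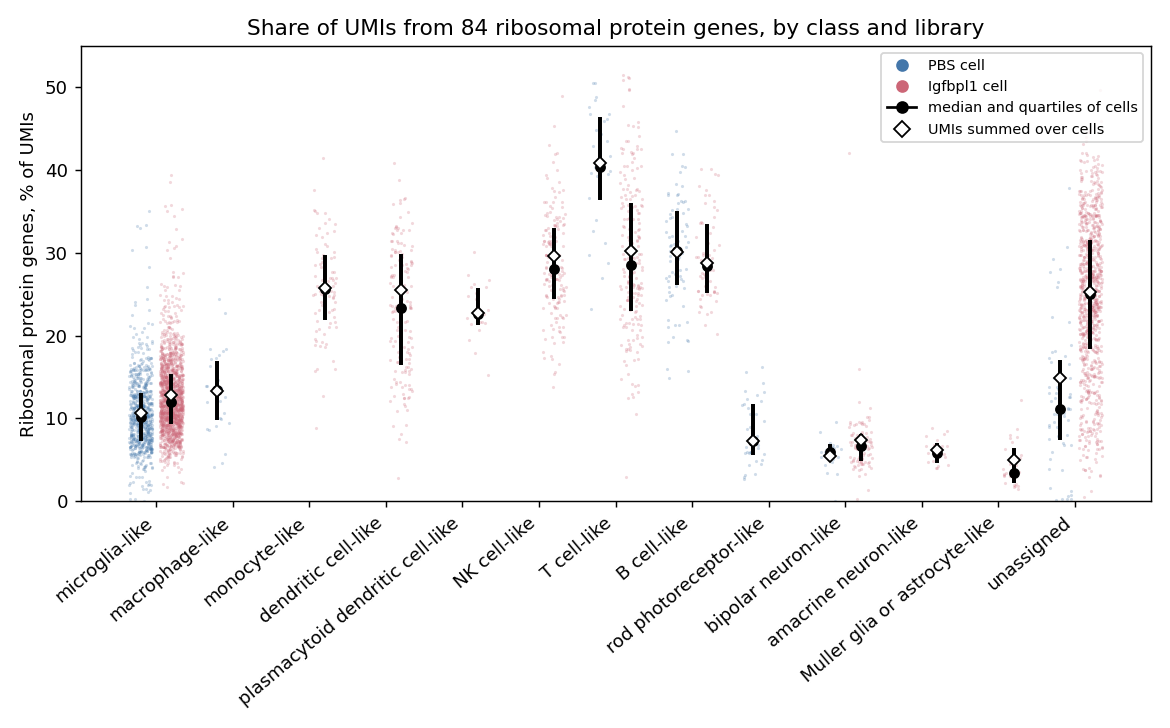
Ribosomal protein genes as a percentage of each cell's UMIs (vertical axis), by class and library. Small points are cells, black dots and bars the median and quartiles of cells, and diamonds the UMIs summed over cells: T cell-like cells stand highest in both libraries (40.8% and 30.2%) and retinal cells lowest.

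The first comparison asks how the share differed within a class between both libraries. In microglia-like cells ribosomal protein genes took 10.7% of UMIs in the PBS library and 12.8% in the Igfbpl1 library, a ratio of 1.19 (1.19 to 1.20) and a gap of 2.08 percentage points. The quartiles of cells were 7.54 and 12.8% in the PBS library and 9.61 and 15.1% in the Igfbpl1 library. These ranges overlapped widely, and 1073 of 1539 Igfbpl1 cells (69.7%) lay above the PBS median. The Igfbpl1 cells were shallower, with a median of 2072 UMIs against 3501.5, yet the order was the same within each range of depth. Cells of 1000 to 2000 UMIs stood at 9.42% and 12.9%, cells of 2000 to 4000 at 10.6% and 12.3%, and cells of 4000 UMIs or more at 10.9% and 14.2%. Heat shock and immediate early genes, which dissociation is known to induce, moved with the library: their median UMIs per 1000 were 26.5 in PBS and 47.8 in Igfbpl1 microglia-like cells. Within 3 strata of those UMIs, and with those genes left out of the total, the ribosomal protein share was 10.6% and 14.03% in the low, 12.1% and 13.7% in the middle and 10.3% and 12.97% in the high stratum. Among microglia-like cells with no marker UMI of another class (310 and 806 cells) the shares were 10.9% and 12.7%. Over all microglia-like cells the summed markers of other classes stood at 303 CPM and 335 CPM (UMIs of a gene per 1000000 UMIs of the class), with 52 and 76 of 98 detected. Cd74, the MHC class II invariant chain, which is no marker of that list, stood at 132 and 638 CPM, and its part in the difference was not tested.

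T cell-like cells differed in the opposite direction, and by more. Their share was 40.8% in the PBS library and 30.2% in the Igfbpl1 library, a ratio of 0.740 (0.732 to 0.748) and a difference of -10.6 points. Only 28 of 201 Igfbpl1 cells (13.9%) lay above the PBS median of 40.4%. Within ranges of depth the shares were 35.6% and 27.9% (1000 to 2000 UMIs, 5 and 92 cells), 41.8% and 31.0% (2000 to 4000 UMIs) and 40.9% and 31.1% (4000 UMIs or more). The make-up of the T cell-like class differed between the libraries. In the PBS library 21 of 29 had at least 2 UMIs of the naive T cell genes Lef1, Ccr7 and Tcf7 and none of the gamma-delta T17 genes Cd163l1, Trdv4, Il17a and Trdc, against 39 of 201 in the Igfbpl1 library. In those naive-type cells the share was 41.9% and 34.1%, a ratio of 0.814. The 65 Igfbpl1 cells with at least 2 UMIs of gamma-delta T17 genes stood at 24.7%, and 0 of 29 PBS cells carried such UMIs, which, at 3 counts of the total, allows a share of cells with such a UMI (not of cells expressing the genes) of up to 10.3%. Igfbpl1 T cell-like cells with no UMI of either gene set stood at 32.02% (62 cells). Cd74 stood at 19.4 CPM in PBS (2 UMIs) and 352 CPM in Igfbpl1 T cell-like cells, and its part in the difference was not tested.

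B cell-like cells, which carry immunoglobulin genes, stood close together at 30.1% and 28.8%, a ratio of 0.955 (0.944 to 0.967). In B cell-like cells with no marker UMI of another class the shares were 31.6% (37 cells) and 31.4% (26 cells), a ratio of 0.996, and in cells of 2000 to 4000 UMIs they were 29.4% and 31.6%, in the opposite order. The direction in B cell-like cells thus depended on which cells were taken.

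Bipolar neuron-like cells, the retinal interneurons between photoreceptors and ganglion cells, stood at 5.50% and 7.36%, a ratio of 1.34 (1.30 to 1.38). The median cell stood at 5.93% and 6.64%, with quartiles of 5.26 and 6.62% in the PBS and 5.08 and 7.93% in the Igfbpl1 library. The highest cell stood at 9.53% in the PBS and 42.1% in the Igfbpl1 library. Immune transcripts moved with the difference in share. Cd74 had 0 UMIs in PBS cells of the class and 632 CPM in Igfbpl1 cells, and Ptprc, the gene of CD45, had 0 UMIs and 33.2 CPM. A count of 0 allows up to 30.6 CPM there, taken as 3 counts of the class total. The summed markers of other classes were close, at 969 CPM (784 to 1185) and 974 CPM (845 to 1116), with 15 and 33 of 99 detected. In cells of 2000 to 4000 UMIs the order was reversed, at 6.22% (14 cells) and 5.69% (40 cells). The part of immune transcripts in the difference was not tested.

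Over the whole libraries the members took 12.6% of PBS UMIs and 20.3% of Igfbpl1 UMIs, a ratio of 1.61 and a gap of 7.66 points. Unassigned cells held 6.35% of PBS UMIs at a ribosomal protein share of 14.9%, and 35.6% of Igfbpl1 UMIs at 25.3%. Most of these Igfbpl1 cells carried MHC class II transcripts: the share was 26.9% in the 594 with at least 10 UMIs of such genes and 20.8% in the other 334. In the PBS library the matching values were 16.0% (29 cells) and 13.5% (33 cells). The cell mix was next held as in the PBS library, over the 4 compared classes and all other cells. The Igfbpl1 class shares then raised the library value by 3.31 points. The mix inside all other cells, with 16.2% of PBS and 51.5% of Igfbpl1 UMIs, was not held. The 3.31 points can thus hold differences between cell types of that group. The change of mix made up the other 4.36 points when taken at the Igfbpl1 class shares, but raised the value by 0.833 points when taken at the PBS class shares. The size of each part thus depends on which library is held, and also on how cells are grouped. The mix inside a pooled group is not held in any grouping. With 5 wider groups (microglia, other myeloid cells, lymphocytes, retinal cells and unassigned cells) the class shares gave 2.57 points, and the mix 5.09 points at the Igfbpl1 shares and 2.38 points at the PBS shares.

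Sex-linked transcripts divided the pooled cells, and the whole-library difference was not alike in both sets. Cells were called Xist-only where they had a UMI of Xist, which silences 1 X chromosome in female cells, but of no gene among Ddx3y, Eif2s3y, Kdm5d and Uty on the Y, and Y-only in the opposite case. The ribosomal protein share of Xist-only cells was 11.5% in the PBS library (250 cells) and 21.8% in the Igfbpl1 library (1547 cells), a ratio of 1.89. In Y-only cells it was 12.5% (490 cells) and 13.02% (560 cells), a ratio of 1.04. The remaining cells, with UMIs of neither or of both, stood at 13.7% (315 PBS cells) and 21.2% (1223 Igfbpl1 cells). Outside microglia-like cells these remaining cells stood at 20.3% and 26.2%. Outside microglia-like cells the Xist-only shares were 15.4% and 25.5%, and the Y-only shares 17.8% and 14.4%. In microglia-like cells the higher Igfbpl1 share was present in both sets, at 10.1% and 12.4% in Xist-only and 10.7% and 12.5% in Y-only cells. T cell-like Y-only cells stood at 41.0% (14 cells) and 36.0% (6 cells), and fewer than 5 PBS T cell-like cells were Xist-only. The make-up of the sets differed too: microglia-like cells were 74.8% of PBS and 35.1% of Igfbpl1 Xist-only cells, against 73.3% and 74.6% of Y-only cells. The labels used here do not state which sex the mice had, and the contrast between the sets was not tested.

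**Figure D2:**
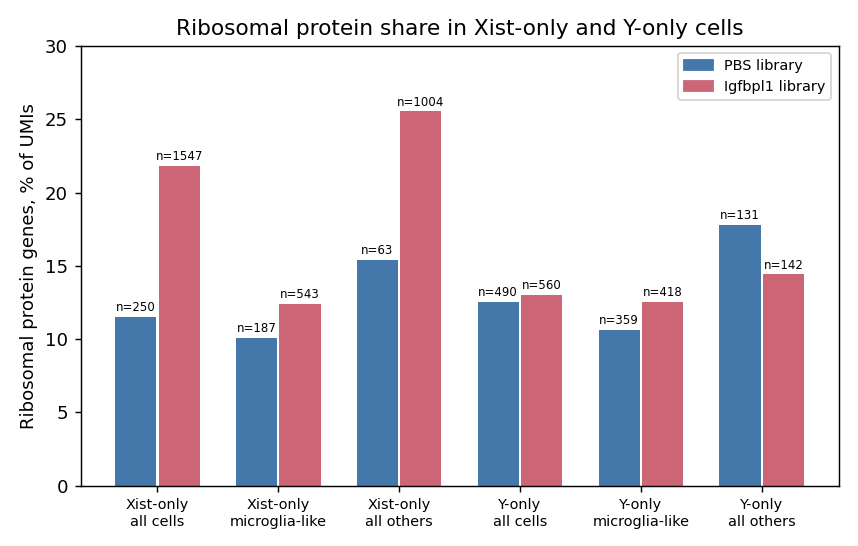
Ribosomal protein genes as a percentage of summed UMIs (bars from 0) in Xist-only and Y-only cells of each library, for all cells, microglia-like cells and all other cells, with cell numbers over the bars. Xist-only cells stood at 11.5% and 21.8% and Y-only cells at 12.5% and 13.02%, while microglia-like cells stood higher in the Igfbpl1 library in both sets. Counting intervals are narrower than 1 percentage point. Cells with UMIs of neither or of both are not drawn.

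The next comparison takes single members, as CPM of a class and as the log2 of the Igfbpl1 level over the PBS level, each with 10 CPM added. A gene was measured at a mean of at least 50 CPM and 20 UMIs, and counted as higher or lower from 1.5-fold. In microglia-like cells 80 of 84 members were measured, leaving out Rpl10, Rpl39l, Rpl3l and Rps19bp1. The median of the measured members was 0.27, against -0.13 for the other genes. At 1.5-fold 4 members (5%) were higher, beside 3.74% of all 3341 genes measured, and 1 (1.25%) was lower, beside 5.36%. The members' shift was thus wide and shallow, with 57 of 80 above 0, and their share of higher genes was close to the background while that of lower genes was below it. Scaled by the median ratio of all genes, 11 of 80 were higher, beside 5.84% of all genes under that scaling, and 1 was lower, beside 2.69%.

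The higher members in microglia-like cells included Rpl22l1, Rps26 and Rpl10a. Rpl22l1, the paralogue of the large subunit gene Rpl22 (chromosome 3, 28805436 to 28807424, plus strand), stood at 313 and 532 CPM, a ratio of 1.70 (1.57 to 1.84). Rps26, a small subunit protein at the exit of the messenger RNA channel (minus strand of chromosome 10, 128624534 to 128626747), was at 1211 and 1982 CPM (1.64, 1.57 to 1.71). Rpl10a, of the large subunit's L1 stalk (chromosome 17, 28328471 to 28331033, plus strand), stood at 990.3 and 1566 CPM (1.58, 1.51 to 1.66). Rps27a, which encodes ubiquitin fused to a small subunit protein, stood at 2005 and 2974 CPM (1.48).

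On the other side stood Rps27 and its retrogene copy Rps27rt. Rps27rt was at 126 and 70.1 CPM in microglia-like cells (0.558, 0.473 to 0.657) and Rps27, a zinc-finger protein of the small subunit, at 470.4 and 323 CPM (0.686, 0.634 to 0.743). Rps27rt is close in sequence to Rps27, so reads of either could be counted for the other and the split between them is uncertain. Rpl5, which carries 5S ribosomal RNA into the large subunit, stood at 365 and 277 CPM (0.759, 0.695 to 0.828). The 5 members at the highest levels in this class, summed over both libraries, were Rps29, Rplp1, Rpl39, Rps24 and Rpl37a, on a 3' kit that counts transcripts without regard to their length. Rps29 stood at 5085 and 4365 CPM and Rplp1 at 3349 and 2660 CPM, neither past 1.5-fold, whereas Rpl39 stood at 3185 and 4146 CPM, Rps24 at 3051 and 3792 CPM and Rpl37a at 2808 and 3529 CPM. In the Igfbpl1 library alone Rplp1 lay below several others, such as Rpl37 at 3315 CPM.

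The stalk proteins, which recruit elongation factors to the large subunit, had ratios on both sides of 1 in microglia-like cells, none of them past 1.5-fold. In microglia-like cells Rplp0, the base of the stalk, stood at 1110.3 and 1389 CPM (1.25, 1.20 to 1.31), while Rplp1 had a ratio of 0.794 (0.772 to 0.817) and Rplp2 stood at 1137 and 989 CPM (0.869, 0.829 to 0.912). The 3 stalk genes together made up 5.28% of the UMIs of the ribosomal proteins proper in PBS and 3.98% in Igfbpl1 microglia-like cells. In T cell-like cells Rplp1, at 9542 and 5442 CPM, and Rplp2, at 4238 and 2594 CPM, were lower, and Rplp0, at 5974 and 4151 CPM (0.695), did not reach 1.5-fold.

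In T cell-like cells 79 members were measured, with a median log2 ratio of -0.41 against 0.18 for the other genes. At 1.5-fold 26 (32.9%) were lower, beside 16.2% of all 2716 genes measured, and 1 (1.27%) was higher, beside 28.8%. Lower members made up 13 of 30 small subunit and 12 of 45 large subunit genes, paralogues apart. Rps27 stood at 2706 and 836 CPM (0.309, 0.266 to 0.360) and Rps27rt at 727 and 214 CPM (0.295, 0.219 to 0.399). Rpl5 stood at 1416 and 634 CPM (0.448) and Rps29 at 13082 and 6073 CPM (0.464). The higher member was Rps27l, a paralogue of Rps27 known as a target gene of p53, at 87.3 and 278 CPM (3.18, 1.63 to 7.10). That log2 ratio of 1.57 was 0.35 in the T cell-like cells with no marker UMI of another class (9 and 68 cells). Rpl36al stood at 1047 and 1359 CPM (1.30) and Rpl31 of the large subunit at 785 and 910.1 CPM, with an interval of the ratio that spans 1 (0.915 to 1.48). In the naive-type T cells alone 12 of 79 members were lower, beside 13.4% of all 1588 genes measured there, and the members' median was -0.27 against 0.23 for other genes. In Y-only cells (14 and 6) 16 of 78 were lower, beside 23.1% of 360 genes, with a median of -0.22 against 0.06. On these counts the members were near or below the background.

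In B cell-like cells the median of 79 measured members was -0.06, against -0.15 for other genes, with 9 (11.4%) lower beside 24.3% of all 2489 genes and 1 (1.27%) higher beside 14.4%. Rps27rt stood at 754 and 203 CPM (0.269), Rps27 at 2643 and 1256 CPM (0.475), Rpl13a at 2060 and 1112 CPM (0.540, 0.448 to 0.648) and Rpl5 at 913 and 491 CPM (0.537). The higher member was again Rps27l, at 74.3 and 196 CPM (2.64, 1.36 to 5.39). Rpl36al stood at 802 and 1066 CPM (1.33). Scaled by the median ratio of all genes, which was below 0 in this class, the members' median was 0.086 with 5 lower, beside 17.8% of all genes. The B cell-like and T cell-like values come from the same pair of libraries, so they are not separate evidence.

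In bipolar neuron-like cells the median of 79 measured members was 0.34, against -0.01 for other genes. At 1.5-fold 20 (25.3%) were higher, beside 14.3% of all 2996 genes, and 2 (2.53%) were lower, beside 12.6%. Rpl22 stood at 214 and 579 CPM (2.70, 1.69 to 4.53) and Rps19, a small subunit protein mutated in Diamond-Blackfan anaemia, at 530.5 and 1021 CPM (1.92). Rps19bp1 stood at 20.4 and 104 CPM, a ratio that rests on 2 PBS UMIs. The lower members were Rpl23a, at 214 and 119 CPM, and Rps27rt, at 91.8 and 52.2 CPM, and the interval of both ratios spans 1. Rpl9 stood at 530.5 and 366 CPM (0.689). In cells of 2000 to 4000 UMIs the median was -0.13, with 4 of 75 members higher, beside 20.3% of 1446 genes, and 8 lower, beside 14.1%.

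**Figure D3:**
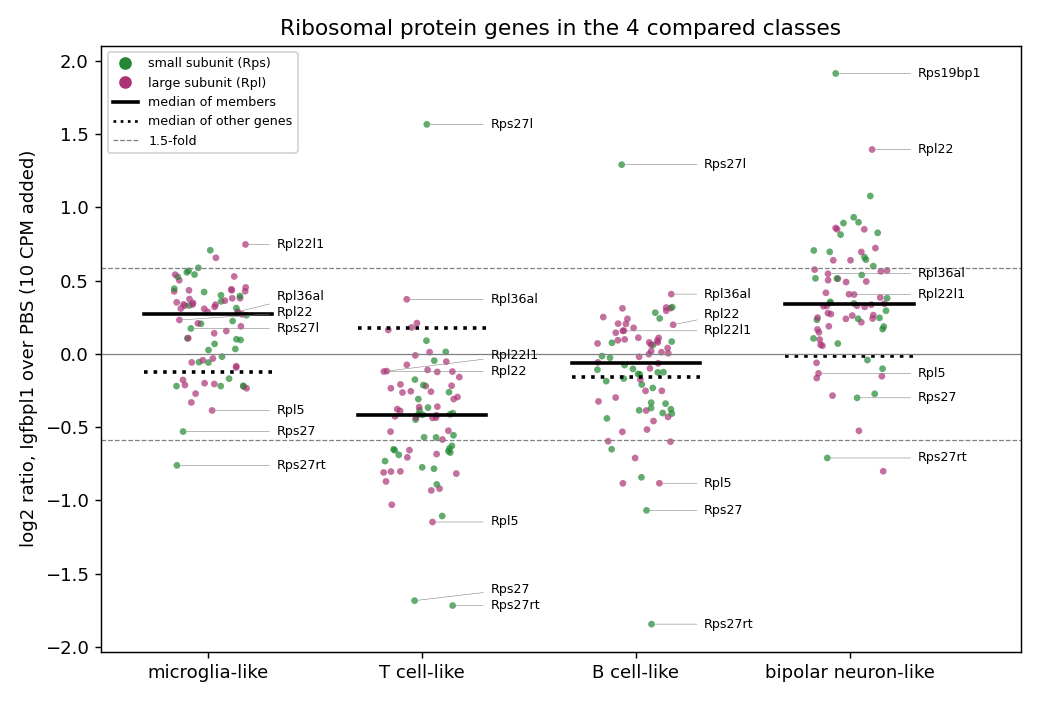
Log2 of the Igfbpl1 over the PBS level (vertical axis, 10 CPM added to each) of the measured members in the 4 compared classes. Points are genes, coloured by Rps or Rpl symbol, solid bars the medians of members (0.27, -0.41, -0.06 and 0.34 from left to right), dotted bars those of other genes and dashed lines 1.5-fold; Rps27 and Rps27rt lie at or near the bottom in each class.

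Paralogue pairs were compared as the percentage of a pair's UMIs that came from the paralogue. Rps27 and Rps27l differed most between immune classes. Rps27l (chromosome 9, 66946086 to 66949516, plus strand) gave 3.13% of both genes' UMIs in PBS T cell-like cells (1.44 to 5.85%), 2.73% in B cell-like cells and 23.7% in microglia-like cells. In the Igfbpl1 library it gave 24.96% in T cell-like, 13.5% in B cell-like, 18.5% in NK cell-like and 33.98% in microglia-like cells, and 62.1% in dendritic cell-like cells (59.0 to 65.1%), the only class with counting intervals wholly above 50%. The levels of Rps27l behind these values were 1151 CPM in dendritic cell-like and 405 CPM in monocyte-like cells of the Igfbpl1 library, and 275 CPM in macrophage-like cells of the PBS library. In T cell-like, B cell-like and microglia-like cells the Rps27l percentage was larger in the Igfbpl1 library, and the intervals of both libraries did not overlap. In each of these classes Rps27 itself stood lower in the Igfbpl1 library. In microglia-like cells Rps27l stood at 146 and 166 CPM (1.14, 1.001 to 1.29), while Rps27 stood at 470.4 and 323 CPM. The uncertain split of reads between Rps27 and Rps27rt bears on these percentages too. Among naive-type T cells the percentages were 3.15% (1.28 to 6.39%) and 19.1% (13.2 to 26.2%), and in Igfbpl1 T cell-like cells with gamma-delta T17 genes 33.5%.

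Rpl22, which T cells need for their development, and Rpl22l1 differed between bipolar or amacrine neuron-like cells and immune cells. Rpl22l1 gave 67.7% of both genes' UMIs in PBS bipolar neuron-like cells (54.95 to 78.8%) and 50.8% in Igfbpl1 bipolar neuron-like cells (44.4 to 57.2%), and 77.9% in amacrine neuron-like cells (68.7 to 85.4%). Rod photoreceptor-like cells, at 32.9% (22.5 to 44.6%) in the PBS library, lay among the immune classes. In immune classes it gave 21.4% (monocyte-like) to 38.9% (T cell-like) in the Igfbpl1 library. T cell-like cells had the same value of 38.9% in both libraries, with Rpl22 at 3006 and 2765 CPM and Rpl22l1 at 1910.4 and 1760.2 CPM, and the intervals of both ratios span 1. In microglia-like cells Rpl22l1 gave 24.5% (23.1 to 26.0%) and 31.9% (30.8 to 33.1%). Rpl22 lies on chromosome 4, 152325742 to 152334071, plus strand.

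Rpl36al on chromosome 12 (69182731 to 69184083, minus strand) is the autosomal copy of Rpl36a on the X chromosome (134585654 to 134588062, plus strand). The proteins are nearly alike, but the transcripts were not compared here, and how reads were split between the genes is uncertain. Rpl36al gave 29.3% of both genes' UMIs in T cell-like, 32.2% in B cell-like and 41.4% in microglia-like cells of the PBS library, and 48.4%, 45.3% and 49.99% in the Igfbpl1 library. Plasmacytoid dendritic cell-like cells stood highest, at 69.3% (62.4 to 75.7%), followed by monocyte-like cells at 60.7%. Rpl39l and Rpl3l, which are known from testis and from muscle, had at most 7 and 6 UMIs in any named class, beside 15251 of Rpl39 in Igfbpl1 microglia-like cells and 543 of Rpl3 in monocyte-like cells. Rpl10l and Rps4l were not listed in both libraries.

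**Figure D4:**
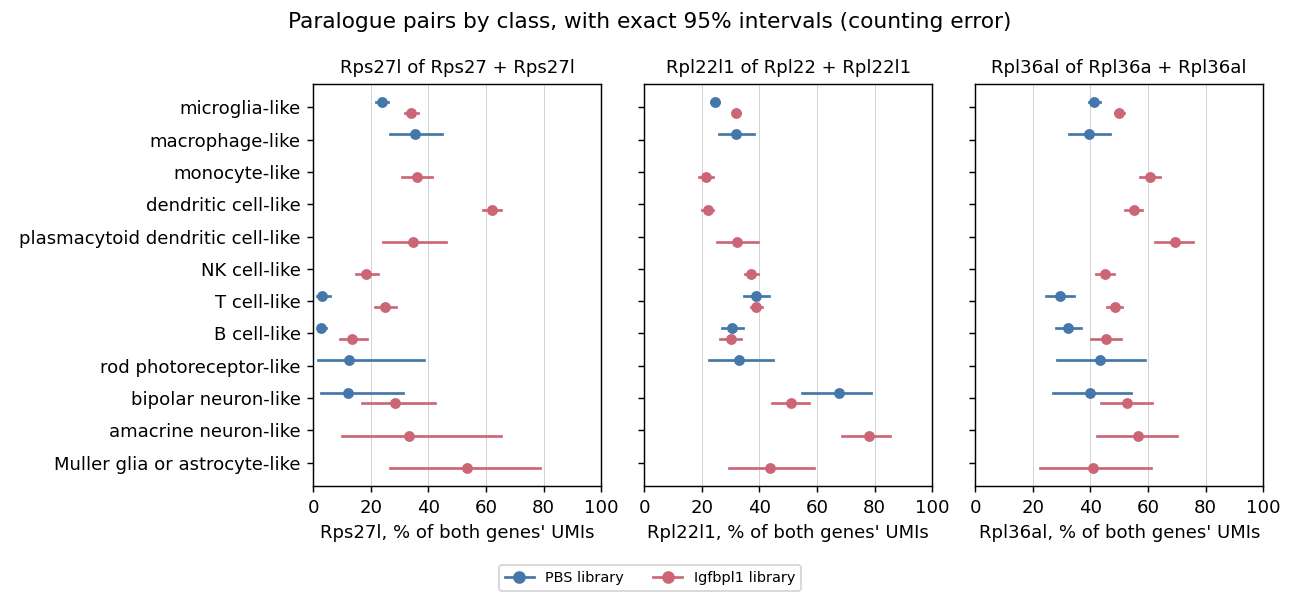
Percentage of a pair's UMIs that came from the paralogue (horizontal axes, 0 to 100%) for Rps27l, Rpl22l1 and Rpl36al, by class and library, with exact 95% intervals for counting error. Rps27l stands at 62.1% in dendritic cell-like cells and at 3.13% in PBS T cell-like cells, and Rpl22l1 at 77.9% in amacrine neuron-like cells.

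Sequence around the transcription start was compared for the same pairs, because the TOP tract starts there. RefSeq promoter windows (GRCm38.p6, the mm10 build) were matched by symbol for 64 of 84 members, as 76 windows. Each line below gives 30 bases, 15 before and 15 from the start site on, 5' to 3' on the gene's strand, with the longest run of C and T in capitals. The windows are chr3:90213634-90213663 (minus strand) for Rps27, chr9:66946071-66946100 (plus) for Rps27l, chr4:152325711-152325740 (plus) for Rpl22 and chr3:28805493-28805522 (plus) for Rpl22l1.
Rps27: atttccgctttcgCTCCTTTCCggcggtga
Rps27l: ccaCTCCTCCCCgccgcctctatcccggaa
Rpl22: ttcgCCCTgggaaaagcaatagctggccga
Rpl22l1: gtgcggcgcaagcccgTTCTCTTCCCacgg
In the Rps27 window the run of 9 bases covers the RefSeq start. In Rps27l the run lies before the RefSeq start and in Rpl22l1 after it. In the Rpl22 window the longest run is 4 bases. Rps27l and Rpl22 each have a second RefSeq window at another start, not printed, with longest runs of 4 and 5 bases. A C at the annotated start followed by at least 4 bases that are C or T, read on the gene's strand only, was found in 14 of 76 member windows (18.4%) and in 2.51% of 32851 windows of all genes. The 14 genes include Rps27, Rps27rt, Rplp2, Rps6, Rps18, Rpl14 and Rpl35a. A run of at least 8 C or T anywhere in the 30 bases was found in 36.8% of member windows and 12.003% of all windows. Annotated starts can be off by a few bases or more, and RefSeq and GENCODE starts differ for Rpl22 and Rpl22l1. The Rpl22 window ends at 152325740, before the GENCODE start of 152325742. The Rpl22l1 window begins at 28805493, past the GENCODE start of 28805436. A match, or the lack of one, is a description of these letters only.

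The next question was whether the members keep the same ratios to each other in every class, taking each member as a percentage of all member UMIs. In the Igfbpl1 library 60 members had at least 20 UMIs in each of 10 classes. The median of the highest over the lowest class was 1.69, with 17 members at 2-fold or more and 20 under 1.5-fold. In the 7 immune classes 53 to 57 of the 60 lay within 1.25-fold of the member's median over classes, against 45 in bipolar neuron-like, 35 in Muller glia or astrocyte-like and 34 in amacrine neuron-like cells. The last 2 classes held 2884 and 4220 member UMIs, so part of their spread is counting error. The median is taken over the same 10 classes, 7 of them immune, so it lies near the immune values by construction. These counts thus cannot show that immune classes keep their ratios better than retinal classes.

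Among the members with at least 20 UMIs in each class, the widest range belonged to Rpl22l1. It made up 1.92% of member UMIs in amacrine neuron-like (1.53 to 2.38%) and 0.266% in monocyte-like cells, a ratio of 7.22. Rps25, a small subunit protein used by internal ribosome entry sites, ranged from 0.388% in NK cell-like to 1.23% in amacrine neuron-like cells (3.18). Rps20 was highest in plasmacytoid dendritic cell-like cells (3.11%) and Rps9 in monocyte-like cells (2.22%), both lowest in amacrine neuron-like cells, with ratios of 2.79 and 2.75. Members with fewer UMIs in some class are not ranked, and some of them differed strongly between immune classes. Rpl31, with 12 UMIs in Muller glia or astrocyte-like cells, made up 1.19% in plasmacytoid dendritic cell-like cells. In the other immune classes it made up 0.272% to 0.323%. Rps27l made up 0.452% in dendritic cell-like and 0.0668% in NK cell-like cells. Rpl10a, one of the higher members above, made up 1.22% in microglia-like cells and 0.711% to 0.909% elsewhere in the Igfbpl1 library. In the PBS library it made up 0.924% in microglia-like cells, below macrophage-like (0.967%) and rod photoreceptor-like cells (1.41%). At the other end, Rpl41, whose protein is the shortest of the ribosome, ranged over 1.20-fold (2.003% to 2.39%), Rps13 over 1.20-fold, Rpl30 and Rpl23 over 1.24-fold and Rps26 over 1.31-fold.

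**Figure D5:**
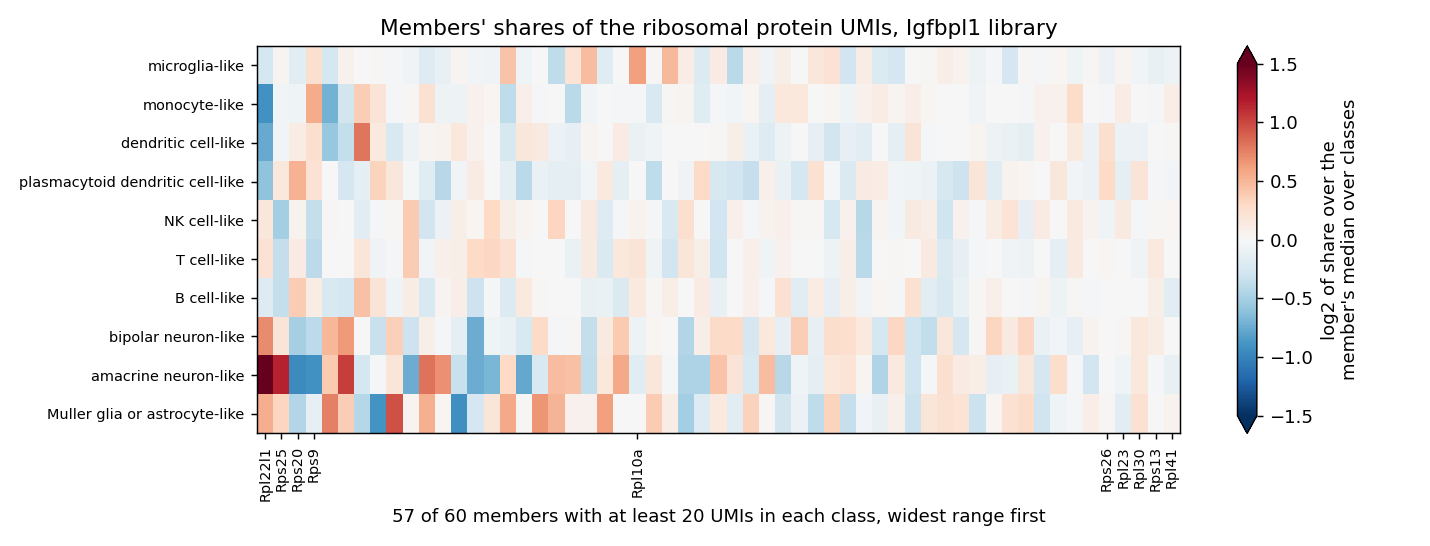
Log2 of each member's percentage of member UMIs over its median across 10 classes of the Igfbpl1 library (colour, clipped at 1.5 either way), for 60 members ordered by range. Of these, 57 are drawn, and only members whose range over classes is described in the text are labelled. The immune rows are pale, with 53 to 57 of 60 members within 1.25-fold, and the 3 retinal rows carry most of the strong colours. Most of the 10 classes are immune, which draws the median towards the immune rows by construction.

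The balance of the subunits differed somewhat, with small subunit values from 38.9% to 46.4% over the classes of both libraries. Small subunit genes, paralogues apart, gave 43.4% of ribosomal protein UMIs in PBS microglia-like cells, 46.4% in T cell-like and 46.0% in B cell-like cells, and 42.8%, 43.1% and 43.8% in the Igfbpl1 library. In each of these classes the counting intervals of both libraries did not overlap. Amacrine neuron-like cells had the lowest value, at 38.9% (37.4 to 40.4%), followed by PBS bipolar neuron-like cells at 40.4% (39.1 to 41.7%).

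Other genes of translation were counted in the same way. Rpsa, Fau (whose protein is made fused to a ubiquitin-like part), and the scaffold gene Rack1 are ribosomal protein genes outside the name pattern, and 0 of these 3 passed 1.5-fold in microglia-like cells. Fau stood there at 4368 and 5987 CPM, Rpsa at 871 and 1243 CPM and Rack1 at 503 and 451 CPM. In T cell-like cells Rack1 was lower, at 2133 and 1032 CPM, as were Eef2, at 446 and 291 CPM, and Tpt1, at 8757 and 4514 CPM. These 2 of 13 elongation and TOP-type genes stand beside 16.2% of all genes lower in that class, which is near the background. Eef1a1, the most used elongation factor gene, stood at 1990 and 1996 CPM in microglia-like and 4975 and 3584 CPM in T cell-like cells. Of 29 translation initiation genes, 21 were measured in microglia-like cells, with 0 higher and 1 lower, and 26 in T cell-like cells, with 2 higher and 2 lower. Of 28 ribosome biogenesis genes, 10 and 12 were measured, with 0 and 4 higher and 1 lower in each. The shares of all genes were 3.74% higher and 5.36% lower in microglia-like cells and 28.8% higher and 16.2% lower in T cell-like cells. Mitochondrial ribosomal protein genes, of which 36 of 78 were measured in T cell-like cells, had 12 higher and 0 lower there (median log2 ratio 0.38), beside 28.8% of all genes higher and a median of 0.18 for genes that are no members, so their count was near the background on the higher side. In microglia-like cells 1 of 15 was higher, beside 3.74% of all genes.

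Across 16 sums of UMIs by class and library, the 10 of 1048 other genes whose log2 levels ran most like that of the summed members included Rpsa, Eef1b2, Eef1a1, Sp100, Nsa2, Snrpg, Fau, Rack1 and Btg1. Their Pearson correlations ran from 0.98 for Rpsa to 0.94 for Btg1. Tpt1 ranked 14 (0.93) and Eef2 63 (0.84). The 16 sums come from 2 libraries and share their depth, so these values are a description.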

How the data were processed

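The deposited values are raw UMI counts per gene and cell barcode, 1 table per library, which the authors made with Cell Ranger 3.1 on the mm10 build, per the submitters' processing notes. The annotation used and the filter on cells are not given in the sources used here, and nothing was removed from the tables. With Python 3.11.15 (pandas 2.3.3, numpy 2.4.6) UMIs were summed over the cells of a class and given as a percentage or as CPM of the class total. Intervals came from scipy 1.17.1. Doublets were called with Scrublet in scanpy 1.11.5 separately per library and stayed in: they were 6 PBS cells (0.569%) and 62 Igfbpl1 cells (1.86%). Classes with at least 20 cells in a library have a value there, and 4 classes have one in both. In each of these the 3 members of highest and of lowest log2 ratio are named. Also named are the 5 members of widest and of narrowest range over Igfbpl1 classes, among those with at least 20 UMIs in each class. The 5 at the highest level in microglia-like cells, the stalk genes, Rps27a and the paralogue pairs are named as well. So are other translation genes and the 10 genes most like the members. Further names, Rps29 and Rpl5 in some classes among them, were chosen with their values in view. A few of the genes so chosen are left out of the text. Positions of genes come from GENCODE M21 and start-site sequences from RefSeq. The counts were checked on simulated data. Figures were drawn with matplotlib 3.10.9. The members and the gene lists were chosen with earlier results of these data known.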

Additional observations from a re-analysis of the deposited data

Results flagged for a closer look

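The share of UMIs from ribosomal protein genes differed between the libraries in opposite directions in different classes. The Igfbpl1 over PBS ratio was 1.19 in microglia-like and 1.34 in bipolar neuron-like cells, and 0.74 in T cell-like and 0.955 in B cell-like cells. This difference between classes was not tested, since each group had 1 library, and the ratios of bipolar neuron-like and B cell-like cells changed direction in cells of 2000 to 4000 UMIs.

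Pseudogene symbols, which the choice of members leaves out, also carried UMIs. Rpl10-ps3 gave 72.4% of its UMIs and those of Rpl10 together in the PBS library and 72.5% in the Igfbpl1 library. The X-linked Rpl10, a core protein of the large subunit, stood at 43.2 and 33.6 CPM under its own symbol. Rpl10-ps3 stood at 114 and 88.4 CPM. Rpl9-ps6 gave 12.1% and 9.88% of the UMIs with Rpl9, Rpl9-ps1 0.124% and 0.134%, and Rpl36a-ps1 0.743% and 0.758% of the UMIs with Rpl36a. Pseudogene copies close in sequence to their parent genes can take up reads of the parent, and how reads were assigned was not tested.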

How the results depend on the processing

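No paired analysis was possible because each group had 1 library and replicate numbers only name it, and no library could be left out. Intervals cover counting error only, and alternatives with fewer than 5 cells in a library gave no value. Several others rest on few cells, given here as PBS and Igfbpl1. Bipolar neuron-like cells numbered 9 and 40 as Xist-only, 12 and 39 as Y-only and 14 and 40 at 2000 to 4000 UMIs. B cell-like cells numbered 11 and 18, 39 and 12, and 53 and 10 in the same order. T cell-like cells numbered 14 and 6 as Y-only and 14 and 86 at 2000 to 4000 UMIs. The settings with naive-type T cells, with 5 wider groups and with cells that lack other classes' markers were chosen after seeing the data. Where a value moved, the cause was not tested. In the Igfbpl1 library 17 of 60 members had a range of at least 2-fold over 10 classes. In the PBS library it was 17 of 71 members over 6 classes, which are partly other classes. A range can only widen as classes are added, so the equal counts are not a like comparison.

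Share ratios (1.19 microglia-like, 0.740 T cell-like, 0.955 B cell-like, 1.34 bipolar neuron-like, 1.61 whole library) changed as follows. With cells of 2000 to 4000 UMIs they were 1.16 microglia-like, 1.52 whole library and, reversed, 1.08 B cell-like and 0.916 bipolar neuron-like. In Xist-only cells they were 1.23 microglia-like, 0.926 B cell-like, 1.504 bipolar neuron-like and 1.89 whole library, and in Y-only cells 1.17 microglia-like, 0.877 T cell-like, 1.24 bipolar neuron-like and 1.04 whole library. At 10 times the next class's markers they were 1.16, 0.705, 0.974 and 1.13 in the order above, and with at least 6 marker UMIs 1.18 microglia-like. Without doublets they were 1.18 microglia-like and 1.27 bipolar neuron-like. Thinned to 1000 UMIs they were 0.727 T cell-like, 1.23 bipolar neuron-like and 1.46 whole library, and as a mean over cells 0.731, 0.978, 1.23 and 1.46 for T cell-like, B cell-like, bipolar neuron-like cells and the whole library. Without mitochondrial, heat shock and early genes they were 1.22 microglia-like and 1.62 whole library, and with paralogues left out and 4 further ribosomal protein genes added 1.202 and 1.62. Cells without other classes' markers gave 1.17 microglia-like, 0.726 T cell-like and 0.996 B cell-like, and naive-type T cells 0.814. Weighted by cells, class shares at the PBS mix gave 3.19 of 5.87 points, and the mix 0.0276 points at PBS shares but 2.68 at Igfbpl1 shares. With 5 wider groups the values were 2.57, 2.38 and 5.09 points. The mix inside pooled groups was not held in either case.

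Scaling by the median ratio moved the median of all genes, which was -0.12 in microglia-like, 0.15 in T cell-like, -0.15 in B cell-like and -0.0031 in bipolar neuron-like cells, to 0. Counts of members below are followed by the share of all genes under the same setting. The members' medians became 0.40 in microglia-like cells (11 of 80 higher, beside 5.84%) and -0.56 in T cell-like cells. In B cell-like cells the median was, reversed, 0.086 (5 of 79 lower, beside 17.8%), and Rplp0 also reversed to 0.051. In cells of 2000 to 4000 UMIs the B cell-like median reversed to 0.14 (5 of 79 higher, beside 16.9%, Rplp0 0.24, Rpl22l1 -0.28). The bipolar neuron-like median reversed to -0.13 in that range (Rplp0 -0.57, Rps27a -0.057). There 4 of 75 members were higher, beside 20.3%, and 8 lower, beside 14.1%. At that depth Rpl31 reversed to -0.17 in T cell-like cells. Microglia-like cells of that depth had 2 of 80 higher, beside 5.77%, and 2 lower, beside 7.12%. In Xist-only cells the bipolar neuron-like median was 0.54, with 36 of 76 higher, beside 22.3%, and 1 lower, beside 17.8%. In that set 9 of 80 microglia-like members were higher, beside 9.14%, and 2 of 78 B cell-like members, beside 31.1%. In Y-only cells the T cell-like median was -0.22 (16 of 78 lower, beside 23.1%). In Y-only cells 2 of 80 microglia-like members were lower, beside 3.86%, and 0 of 78 B cell-like members higher, beside 15.1%. There Rps27l reversed to -0.015 in microglia-like cells, Rpl36al to -0.034 and Rps27a to 0.057 in T cell-like cells, and Rpl36al to -0.23 and Rplp1 to -0.16 in bipolar neuron-like cells. With 50 CPM added 0 of 80 microglia-like members were lower, beside 1.62%, and 1 of 79 bipolar neuron-like members, beside 6.21%. With a minimum of 10 CPM 2 of 81 T cell-like members were higher, beside 35.2%. With no minimum 2 of 83 T cell-like members were higher, beside 32.3%, and 4 of 82 bipolar neuron-like members lower, beside 20.7%. Naive-type T cells had a median of -0.27 with 12 of 79 lower, beside 13.4%, and Rpl22l1 reversed to 0.26. T cell-like cells without other classes' markers had 0 of 79 higher, beside 41.5%.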
